A study of Mus musculus with 12 samples.

Results

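Vnn1 and Vnn3 encode vanins, secreted or membrane-anchored pantetheinases, and Pank1, Pank2, Pank3 and Coasy encode enzymes that build coenzyme A. These 6 genes were selected on their symbols, out of 55450 genes counted in RNA-seq libraries of mouse type II alveolar epithelial (AT2) cells, the surfactant-producing cells of the lung. Vnn3 was chosen by its response to cockroach extract (CRE), one of the strongest in these cells, and Vnn1 as the neighbouring paralog. The differences between CRE and PBS given for the 6 genes are therefore a description. Their calls and positions are given only beside the share of all genes called, and nothing is read from them. The differences between genotypes, and the difference of the CRE response between genotypes, were not used in the choice and were tested. Those tests were themselves chosen with earlier results of these data known.

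AT2 cells came from AhRfl/fl mice, in which both copies of the aryl hydrocarbon receptor gene are floxed, and from Sftpc-Cre;AhRfl/fl mice, which carry the same floxed gene together with Cre recombinase under the Sftpc (surfactant protein C) promoter. The mice were on a C57BL/6 background and 6 to 8 weeks old. The cells were isolated by removing cells that bear CD16/32, CD45, Ter119 or Sca-1, plated on collagen I, and cultured for 24 h in PBS or in 50 µg/ml of CRE. Each of the 4 groups (AhRfl/fl with PBS, AhRfl/fl with CRE, Sftpc-Cre;AhRfl/fl with PBS, Sftpc-Cre;AhRfl/fl with CRE) held 3 libraries, 12 in all. Cre acts only in cells that have used the Sftpc promoter, and any other cells in the culture keep the receptor gene. Nothing in the sample labels says whether the 3 libraries of a group came from separate mice or cultures, so the p-values measure only the spread between these libraries.

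Pantetheine arises when coenzyme A is broken down outside the cell, and pantetheinase splits it into pantothenate (vitamin B5) and cysteamine. Pantothenate can be taken up and made into coenzyme A again. Pantothenate kinases carry out the first step of that synthesis, and the bifunctional Coasy enzyme carries out the final steps. Cysteamine is a small thiol that affects the glutathione balance of tissues, and vanins are known for their part in responses to oxidative stress and inflammation. Vnn1 is also a well-known target gene of the lipid sensor PPARα in the liver.

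Library depth lay between 68878065 and 80935797 counts, so that 3 counts, the number a count of 0 allows, correspond to at most 0.0446 CPM (counts scaled to library size); this limit covers counting error only. Adjusted p-values below come from edgeR's quasi-likelihood test and cover all 20612 genes tested. The targeted gene Ahr, counted over its whole length, held 42.9 to 45.1 CPM in AhRfl/fl and 40.2 to 49.6 CPM in Sftpc-Cre;AhRfl/fl libraries with PBS (edgeR log2 fold change 0.04 ± 0.12, SE, with an adjusted p of 0.990). With CRE it held 50.1 to 56.2 and 37.7 to 51.4 CPM (-0.18 ± 0.12, adjusted p of 0.964 in edgeR), so no difference was detectable. A count over the whole gene does not resolve the floxed part, so the genotypes are named here as labelled. The study itself reported loss of AhR in AT2 cells of these mice by co-staining of lung tissue and by RT-PCR of isolated cells. It also reported lower RNA of AhR target genes in its RNA-seq. All 10 AT2 markers examined had counts in every group. Their summed level was 4870 to 6407 FPKM (a level scaled to transcript length and library size) in the AhRfl/fl libraries, and in the Sftpc-Cre;AhRfl/fl libraries it went from 3547 to 6665 FPKM, with both number 1 libraries lowest. The club cell marker Scgb1a1 was also very high, at a mean of 10233 FPKM against 4400 FPKM of Sftpc, and its part in the results below was not tested. In bulk RNA, fewer cells of a type and less RNA per cell cannot be told apart.

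Vnn3 (ENSMUSG00000020010) lies on the plus strand of chromosome 10, at 23851462 to 23869843 of GRCm38. Vnn1 (ENSMUSG00000037440) follows on the same strand at 23894688 to 23905343, 24844 bases further on. Their protein-coding transcripts were 68.7% identical over an alignment of 1370 columns and shared none of their 31-base words, and no pair among the 6 genes shared one. Because Vnn3 had the larger CRE response, the 250 bases before its annotated start are shown, on the plus strand at chr10:23851212-23851461 of GRCm38.p6 (RefSeq); capitals mark the 1 match to the core of the antioxidant response element, TGACNNNGC, which lies on the minus strand at 82 to 74 bases before the start.
Vnn3: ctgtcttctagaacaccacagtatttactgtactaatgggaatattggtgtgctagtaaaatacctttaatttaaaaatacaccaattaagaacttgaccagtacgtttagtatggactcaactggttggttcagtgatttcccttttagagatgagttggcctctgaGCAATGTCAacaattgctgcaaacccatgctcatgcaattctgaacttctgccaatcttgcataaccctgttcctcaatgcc
That core was found on either strand in 10.2% of 32851 promoter windows that reach from 250 bases before to 50 after a start. The Vnn3 window of that length held no match to the core of the dioxin response element GCGTG, which 28.2% of windows hold, to the AP-1 motif TGANTCA (6.75%), to the STAT motif TTCNNNGAA (7.02%), to the TATA box letters TATAAA (12.4%) or to the kappa B motif (7.25%). Windows were matched for 4 of the 6 genes. None was found for Vnn1 or Coasy, so Vnn3 was not compared with its paralog in this respect. The GCGTG letters occurred at 2 places in the Pank3 window, at 1 place in 1 of 2 Pank1 windows and at 1 place in 1 of 3 Pank2 windows, the last of which also held the TGACNNNGC core. Such a match describes letters in a window and not a site.

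Vnn3 was a low gene that became a moderate one with CRE, whereas Vnn1 was already the most abundant of the 6 and became more so. In AhRfl/fl cells Vnn3 held 211, 184 and 214 counts with PBS and 1254, 1635 and 1429 with CRE. Per length that is 1.42, 1.32 and 1.34 FPKM with PBS against 7.89, 10.7 and 9.31 FPKM with CRE. Every CRE library was several times above every PBS library, and the PBS libraries were nearly alike. In Sftpc-Cre;AhRfl/fl cells Vnn3 held 144, 152 and 88 counts with PBS and 1020, 801 and 1096 with CRE, or 0.931, 0.93 and 0.583 FPKM against 6.603, 5.41 and 6.91 FPKM. The PBS library of number 3 was the lowest of all 12. Between libraries of the same number, the CRE library held 5.55, 8.01 and 6.96 times the CPM of the PBS library in AhRfl/fl cells and 7.09, 5.92 and 12.0 times in Sftpc-Cre;AhRfl/fl cells; the last of these ratios rests on that low PBS library.

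Fitted in edgeR, the log2 fold change of Vnn3 with CRE was 2.77 (SE 0.21) in AhRfl/fl cells and 2.97 (SE 0.21) in Sftpc-Cre;AhRfl/fl cells, or 6.82-fold and 7.85-fold. By size it stood in position 5 among the genes called higher with CRE in either genotype. These were 45 genes in AhRfl/fl (0.218% of all genes tested) and 47 in Sftpc-Cre;AhRfl/fl cells (0.228%). Among all 20612 genes tested, called or not, its log2 fold change ranked 131 in AhRfl/fl and 88 in Sftpc-Cre;AhRfl/fl cells. A gene is called here when its edgeR p, adjusted by Benjamini and Hochberg over all genes tested, is below 0.05.

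Vnn1 showed the same direction with a smaller ratio from a much higher base. Its counts were 11931, 12310 and 12766 with PBS and 24225, 29507 and 27073 with CRE in AhRfl/fl cells. The Sftpc-Cre;AhRfl/fl libraries held 7933, 7395 and 8518 counts with PBS and 16127, 18962 and 23360 with CRE. CRE libraries lay above PBS libraries in both genotypes without overlap, and CRE over PBS of the same number was 1.89, 2.16 and 2.21 in AhRfl/fl and 2.03, 2.88 and 2.65 in Sftpc-Cre;AhRfl/fl cells. The fitted log2 fold changes were 1.07 (SE 0.15) and 1.33 (SE 0.15), which put Vnn1 at positions 25 and 17 among the genes called higher. Among all genes tested, called or not, they ranked 857 and 441. Because Vnn1 is so abundant, it accounted for most of the added vanin RNA: the sum of both genes went from 63.6 ± 3.67 to 139.6 ± 16.6 FPKM in AhRfl/fl cells and from 39.3 ± 4.22 to 101.2 ± 16.2 FPKM in Sftpc-Cre;AhRfl/fl cells (SD, n = 3).

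**Figure D1:**
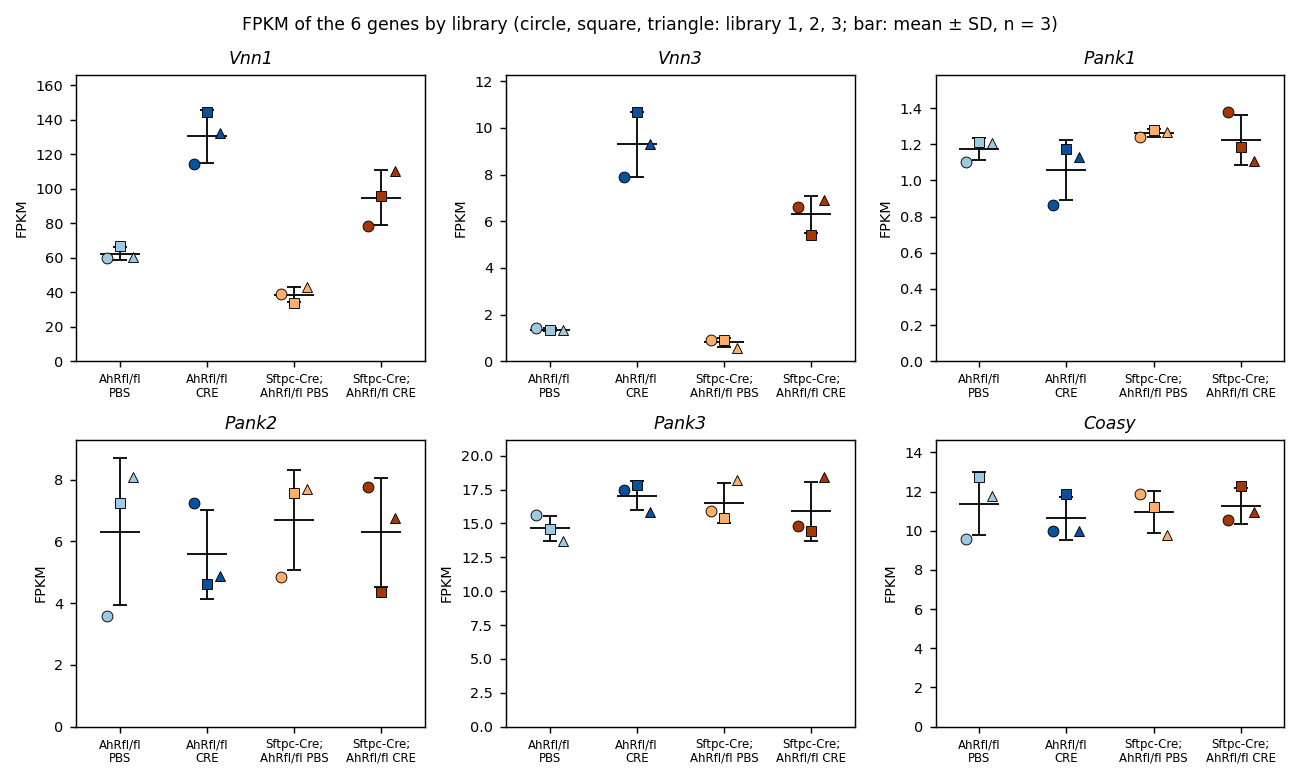
FPKM of Vnn1, Vnn3, Pank1, Pank2, Pank3 and Coasy in the 12 libraries, by group (x axis); circles, squares and triangles are libraries 1, 2 and 3, and bars give the mean ± SD of 3. Both vanins are higher in all CRE than in all PBS libraries of their genotype, from 1.36 to 9.29 FPKM on average for Vnn3 in AhRfl/fl cells, while the 4 coenzyme A genes show no such step in both genotypes.

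Of the 6 genes, 2 were called higher with CRE in AhRfl/fl cells, Vnn1 and Vnn3, where 0.218% of all genes tested were called higher and 0.0146% lower. The same 2 were called higher in Sftpc-Cre;AhRfl/fl cells, against 0.228% of all genes higher and 0.034% lower. With the CRE and PBS libraries of 1 number treated as a block, the same 2 members were called, against 1.87% of genes higher and 1.76% lower in AhRfl/fl cells and 1.33% higher and 0.796% lower in Sftpc-Cre;AhRfl/fl cells. Libraries did not overlap and were higher with CRE for 3 members in AhRfl/fl cells (Vnn1, Vnn3 and Pank3; 8.82% of all genes) and for 2 in Sftpc-Cre;AhRfl/fl cells (Vnn1 and Vnn3; 6.49%). As the CRE response chose Vnn3, these counts support nothing. For the same reason their stability over fits is no evidence. The Vnn1 call in AhRfl/fl cells was lost without any 1 of 5 of the 6 libraries (all but CRE replicate 1), with a log2 fold change of 0.98 to 1.17 over the 6 fits, and in Sftpc-Cre;AhRfl/fl cells it was lost when only the 6 libraries compared were fitted (1.33).

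The balance between the paralogs differed between PBS and CRE libraries. As Vnn3 was chosen by its CRE response, this shift largely restates that response and is given as a description. With PBS, Vnn1 held 42.4, 50.4 and 44.8 times the FPKM of Vnn3 in AhRfl/fl cells, and with CRE 14.5, 13.5 and 14.2 times. In Sftpc-Cre;AhRfl/fl cells the ratios were 41.6, 36.5 and 73.3 with PBS and 11.9, 17.7 and 16.0 with CRE. Vnn3 thus made up 2.14% ± 0.183 of the summed vanin FPKM with PBS and 6.64% ± 0.219 with CRE in AhRfl/fl cells (SD, n = 3), and 2.12% ± 0.689 and 6.33% ± 1.28 in Sftpc-Cre;AhRfl/fl cells. Between genotypes the share did not differ detectably, by -0.024 percentage points with PBS (p = 1.0) and by -0.31 with CRE (p = 0.8, exact two-sided permutation tests of 3 against 3 libraries, which cannot go below 0.1).

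**Figure D2:**
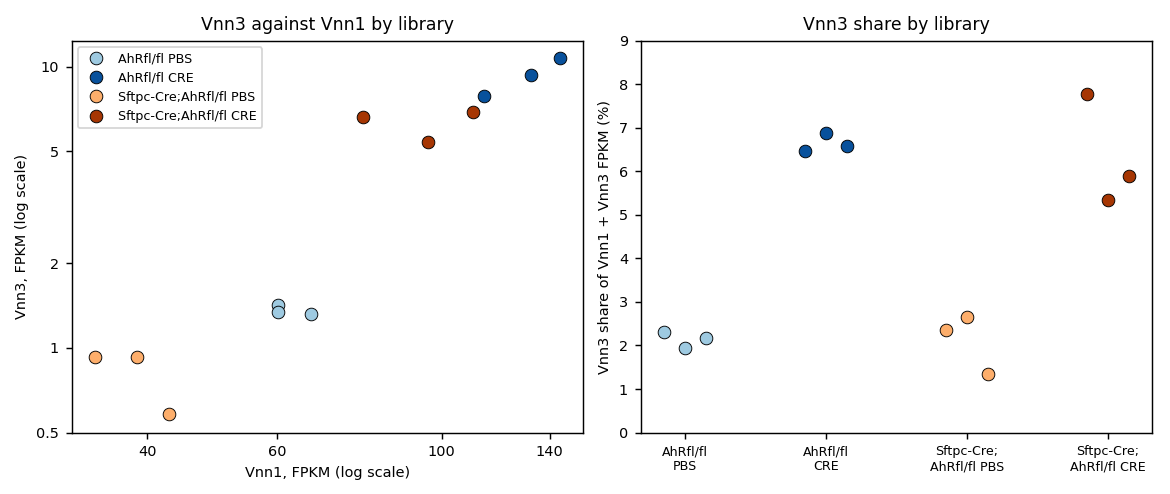
Left, FPKM of Vnn3 (y axis, log scale) against Vnn1 (x axis, log scale) in each of the 12 libraries, coloured by group; right, the share of Vnn3 in the summed FPKM of both vanins (y axis, %) by group, 1 point a library. PBS libraries lie between 1.35% and 2.67% and CRE libraries between 5.33% and 7.78%, in both genotypes.

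The CRE response of the vanins did not differ detectably between genotypes. For Vnn1 the response was larger in Sftpc-Cre;AhRfl/fl cells by 0.27 on the log2 scale (SE 0.21, 95% interval -0.23 to 0.76, adjusted p of 1.0 in edgeR). For Vnn3 it was larger by 0.20 (SE 0.28, 95% interval -0.44 to 0.84, adjusted p of 1.0 in edgeR). Both intervals hold 0, and both allow a difference of more than 0.5 on the log2 scale. None of the 6 members was called for this difference. Across all genes edgeR called 0 (0.0%), with 763 at an unadjusted p below 0.05, and DESeq2 called 23.

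Both vanins had lower mean levels in Sftpc-Cre;AhRfl/fl cells, with PBS and with CRE, by fitted changes of -27.4% to -41.3%, but no single treatment passed the test. With PBS, Vnn1 held 101, 89.9 and 116 CPM in Sftpc-Cre;AhRfl/fl libraries against 159, 183 and 164 CPM in AhRfl/fl libraries, with no overlap. On the log2 scale edgeR gave -0.73 ± 0.15 (SE), at an adjusted p of 0.159. Vnn3 held 1.83, 1.85 and 1.19 CPM against 2.81, 2.73 and 2.76 CPM, again with no overlap, and edgeR gave -0.77 ± 0.20 (SE) with an adjusted p of 0.288. Neither difference passed the test across all genes, and for either gene the exact permutation test gave p = 0.1, the smallest that 3 against 3 libraries allow. Of the 6 members, 0 were called with PBS, against 0.102% of genes called lower and 0.0485% higher, and 2 were lower without overlap, against 7.38% of all genes.

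With CRE, Vnn1 held 205, 259 and 306 CPM in Sftpc-Cre;AhRfl/fl libraries against 301, 395 and 363 CPM in AhRfl/fl libraries. The number 3 library of Sftpc-Cre;AhRfl/fl cells overlapped the lowest AhRfl/fl library, and edgeR gave -0.46 ± 0.15 (SE) with an adjusted p of 0.690, beside an exact permutation p of 0.2. Vnn3 held 12.9, 10.9 and 14.4 CPM against 15.6, 21.9 and 19.2 CPM with no overlap, or -0.57 ± 0.19 (SE) with an adjusted p of 0.735 in edgeR and an exact permutation p of 0.1. Again 0 members were called, against 0.112% of genes lower and 0.0582% higher, and 1 member, Vnn3, was lower without overlap, against 5.43% of genes. Vnn3 was 1 of 243 genes (1.18%) that were lower without overlap at both treatments.

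Averaged over PBS and CRE, the genotype difference was -0.59 for Vnn1 (SE 0.11, 95% interval -0.84 to -0.35, a change of -33.7%) and -0.67 for Vnn3 (SE 0.14, 95% interval -0.99 to -0.35, a change of -37.1%). In a fit that took all 12 libraries as independent, Vnn1 passed the threshold (edgeR adjusted p of 0.0382) and Vnn3 did not (0.0747). That made 1 of 6 members called lower, against 0.437% of all genes called lower and 0.194% higher. However, PBS and CRE libraries of the same number deviated together within a genotype. When the 2 libraries of a number were summed, leaving 3 against 3, the adjusted p of Vnn1 was 0.600 (log2 fold change -0.56), and with an estimated correlation of such libraries in limma it was 0.0983 (-0.60). The exact permutation test over the 3 averages of a genotype gave p = 0.1 for both vanins, the smallest that 3 against 3 allows. The Vnn1 call was also lost without any 1 of 9 of the 12 libraries, and kept only without AhRfl/fl CRE 1, Sftpc-Cre;AhRfl/fl PBS 3 or Sftpc-Cre;AhRfl/fl CRE 3, with log2 fold changes of -0.67 to -0.52 over the 12 fits.

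Neutrophil transcripts had the same direction as the vanins between genotypes. All 10 neutrophil markers had a negative log2 fold change in Sftpc-Cre;AhRfl/fl cells with PBS (median -1.31) and with CRE (median -1.46). The median of all genes was 0.00 for both. With either treatment 0 of 10 were called, against 0.102% of all genes called lower with PBS and 0.112% with CRE. Averaged over both treatments 0 were called as well (median -1.32), against 0.437% of all genes called lower. With the replicate block 2 were, S100a8 (-1.66, edgeR adjusted p of 0.0382 with the block and 0.370 without) and S100a9 (-1.91, 0.0136 and 0.406). The blocked fit called 141 of all 20612 genes lower and 82 higher for the averaged genotype. For genotype that block joins libraries of different genotypes that share only a number. Beyond that shared term it takes PBS and CRE libraries of a number as independent, so these 2 calls carry that limit. The summed level of the 10 neutrophil markers was 8.89 to 63.8 FPKM with PBS and 18.2 to 59.5 FPKM with CRE in AhRfl/fl libraries. In Sftpc-Cre;AhRfl/fl libraries it was 3.88 to 22.7 and 3.17 to 20.9 FPKM. The defining marker Ly6g had 0 to 24 counts, and no marker was at 0 throughout a group. With CRE against PBS the same list had medians of -0.14 in AhRfl/fl and -0.02 in Sftpc-Cre;AhRfl/fl cells. Among the macrophage markers, Lyz2, which AT2 cells also make, gave nearly all of a summed level of 2085 to 3468 FPKM. The list had medians of -0.20 and -0.21 between genotypes. The 10 AT2 markers had genotype medians of -0.18 with PBS, -0.03 with CRE and -0.11 averaged, each with 3 of 10 above 0. Of these, 0 were called. With the replicate block 1 was, Cldn18, which was higher (0.50 averaged, edgeR adjusted p of 0.00065 with the block and 0.315 without). It was 1 of the 82 genes of 20612 that the blocked fit called higher. Fibroblast markers (8 genes, 9.15 to 33.0 FPKM summed), endothelial markers (8 genes, 8.30 to 16.2 FPKM) and airway club and ciliated markers (8 genes, 8068 to 16359 FPKM, nearly all Scgb1a1) had averaged genotype medians of 0.03, 0.05 and 0.06, with 0 called. The part of these cell types in the vanin levels was not tested. Without both number 1 libraries of Sftpc-Cre;AhRfl/fl cells, the ones lowest in AT2 markers, the averaged genotype difference was -0.52 for Vnn1 (edgeR adjusted p of 0.134) and -0.72 for Vnn3 (edgeR adjusted p of 0.200), and the CRE response in that genotype was 1.45 and 3.05.

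**Figure D3:**
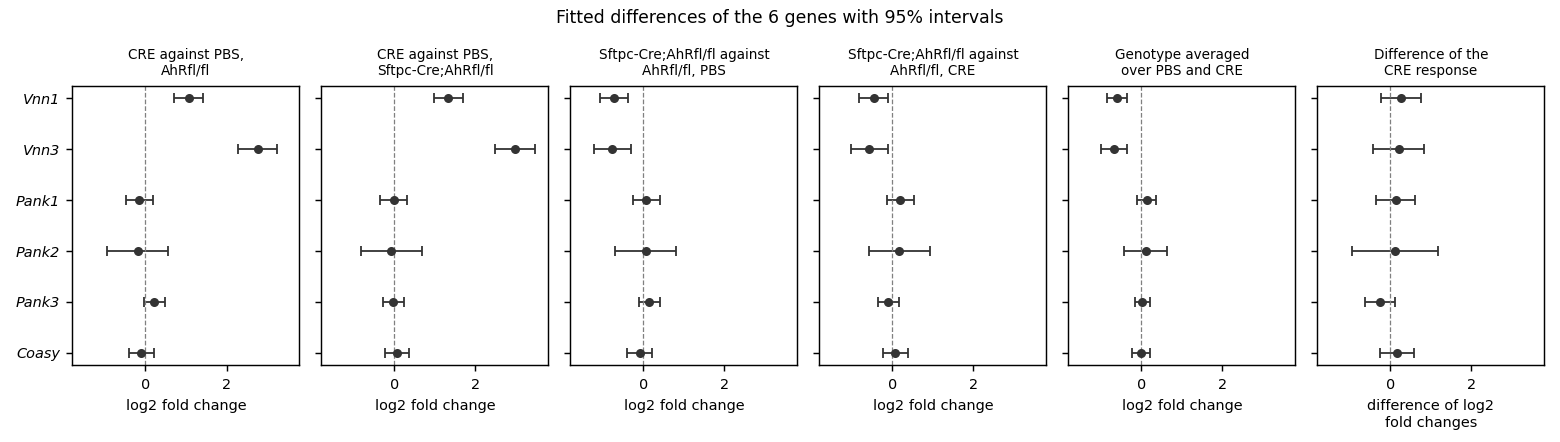
Fitted log2 fold changes (x axis) of the 6 genes (y axis) in the 6 comparisons, 1 a panel, with 95% intervals from the SE and 8 residual degrees of freedom; the dashed line is 0. The vanins stand apart from 0 with CRE (1.07 and 2.77 in AhRfl/fl cells), lie below it for genotype, and all 6 intervals of the difference of the CRE response hold 0.

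The fitted differences between CRE and PBS were smaller for the pantothenate kinases and Coasy than for the vanins. Their intervals, wide for Pank2, still allow differences in either direction. On GRCm38, Pank3 lies on chromosome 11 (35769484 to 35791285), Coasy also on chromosome 11 (101082565 to 101086619), Pank1 on chromosome 19 (34806940 to 34879455, minus strand) and Pank2 on chromosome 2 (131262495 to 131299188). Pank3, the most abundant kinase gene of the 3, held 15.6, 14.6 and 13.7 FPKM with PBS and 17.5, 17.9 and 15.9 FPKM with CRE in AhRfl/fl cells, without overlap. In Sftpc-Cre;AhRfl/fl cells its libraries held 15.9, 15.4 and 18.2 FPKM with PBS and 14.8, 14.5 and 18.4 FPKM with CRE, and they overlapped. The log2 fold changes with CRE were 0.22 (95% interval -0.04 to 0.48) and -0.03 (-0.29 to 0.23). Coasy, which turns phosphopantetheine into coenzyme A, held 9.59 to 12.7 FPKM over the 12 libraries, with log2 fold changes of -0.10 (-0.40 to 0.20) in AhRfl/fl and 0.07 (-0.23 to 0.37) in Sftpc-Cre;AhRfl/fl cells.

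Pank1 was low, at 0.867 to 1.38 FPKM, and its CRE responses were -0.15 (-0.49 to 0.18) and -0.02 (-0.36 to 0.31). Pank2 varied most among the 6 in 3 of the 4 groups, with a coefficient of variation of 24.2% to 37.8% within groups. In the remaining group, Sftpc-Cre;AhRfl/fl with PBS, Vnn3 varied slightly more (24.6%). Its PBS library of number 1 was the lowest of its group in both genotypes, at 3.60 FPKM against 7.24 and 8.08 in AhRfl/fl and 4.84 against 7.58 and 7.70 in Sftpc-Cre;AhRfl/fl cells, whereas its CRE library of number 1 was the highest in both, at 7.24 and 7.77 FPKM. CRE over PBS was accordingly 2.00 and 1.62 in number 1 and 0.585 to 0.901 in the other numbers. The interval of its CRE response was therefore wide, from -0.95 to 0.56 in AhRfl/fl cells and from -0.83 to 0.68 in Sftpc-Cre;AhRfl/fl cells. Exons at the 3' end of Pank2 overlap those of Rnf24 on the opposite strand, which held 649 to 1336 counts in the libraries, and how the counting treated strand is not given in the sources used here.

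For genotype, the 4 coenzyme A genes had log2 fold changes between -0.10 and 0.20 with PBS or CRE, with edgeR adjusted p-values of 0.816 to 1.0. The averaged difference had 95% intervals of -0.10 to 0.37 for Pank1, -0.42 to 0.65 for Pank2, -0.17 to 0.21 for Pank3 and -0.22 to 0.21 for Coasy. The difference of the CRE response between genotypes was -0.25 for Pank3 (-0.62 to 0.12), the furthest below 0 of the 6, and 0.12 to 0.17 for the other coenzyme A genes.

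Per length, the order by mean FPKM began with Vnn1, then Pank3, then Coasy in every group. Vnn3 moved among the lower places, from the fifth with PBS in AhRfl/fl cells and the sixth in Sftpc-Cre;AhRfl/fl cells to the fourth with CRE in both. With CRE in AhRfl/fl cells, Vnn3 at 9.29 ± 1.40 FPKM overlapped Coasy at 10.6 ± 1.10 FPKM (SD, n = 3), and in Sftpc-Cre;AhRfl/fl cells it overlapped Pank2, with 6.31 ± 0.791 against 6.29 ± 1.76 FPKM. No other neighbours in the order overlapped within a group. With PBS in AhRfl/fl cells Vnn3 and Pank1 were close, at 1.36 ± 0.051 and 1.18 ± 0.0615 FPKM.

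Other genes of coenzyme A metabolism were examined in lists. Few genes were called higher with CRE at all (0.218% in AhRfl/fl and 0.228% in Sftpc-Cre;AhRfl/fl cells), so 0 calls in a short list is unremarkable. None of the 5 further synthesis genes, of the 9 genes for coenzyme A breakdown, mitochondrial carriers and phosphopantetheine transfer, of the 7 cysteamine and taurine genes or of the 5 relatives of the vanins (biotinidase and nitrilases) was called in any of the 6 comparisons. With CRE in AhRfl/fl cells the medians of these lists were -0.16, 0.00, 0.15 and -0.13 on the log2 scale, and in Sftpc-Cre;AhRfl/fl cells -0.01, 0.05, 0.00 and 0.00, where the median of all genes tested was 0.00 in both. The most abundant of the synthesis genes was Dcakd, a dephospho-CoA kinase domain gene, with 13.8 ± 0.829 FPKM with PBS and 12.3 ± 0.521 with CRE in AhRfl/fl cells, followed by Ppcs, which joins phosphopantothenate to cysteine (8.66 ± 0.817 and 8.33 ± 0.752 FPKM; SD, n = 3). Slc6a6, the taurine transporter, had 31.3 ± 1.75 and 34.8 ± 0.361 FPKM, and Ado, which oxidises cysteamine to hypotaurine, 8.91 ± 0.656 and 8.41 ± 0.809 FPKM. In the breakdown and carrier list Aasdhppt, the phosphopantetheinyl transferase, had 7.69 ± 2.54 and 7.70 ± 2.00 FPKM and Nudt19, a peroxisomal coenzyme A hydrolase, 8.68 ± 1.07 and 8.58 ± 0.338 FPKM. Biotinidase (Btd) had 7.64 ± 0.730 and 7.40 ± 0.848 FPKM and Nit1 5.40 ± 0.763 and 4.94 ± 0.297 FPKM.

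In a list of 5 genes for glutathione synthesis, its reduction and cystine import, most were called higher with CRE. In AhRfl/fl cells 4 of 5 were called higher and in Sftpc-Cre;AhRfl/fl cells 3 of 5, against 0.218% and 0.228% of all genes tested. The medians were 0.80 and 1.08 on the log2 scale against 0.00 for all genes. The list was chosen with earlier results of these data known, so its calls are given as a description. Gclc, the catalytic subunit of the rate-limiting ligase, rose from 175 ± 5.30 to 412 ± 42.4 FPKM in AhRfl/fl cells (SD, n = 3; 1.24 on the log2 scale, edgeR adjusted p of 0.00382), and from 152 ± 18.6 to 317 ± 36.2 FPKM in Sftpc-Cre;AhRfl/fl cells (1.08, adjusted p = 0.00814). Gclm, its modifier subunit, rose by 0.80 and 1.10 on the log2 scale (adjusted p = 0.0353 and 0.00694, edgeR), and Gsr, glutathione reductase, by 0.41 and 0.44 (adjusted p = 0.0187 and 0.00916, edgeR). Slc7a11, the cystine importer, rose in AhRfl/fl cells from 9.77 ± 2.09 to 27.2 ± 3.97 FPKM (1.48, adjusted p = 0.0299, edgeR), and in Sftpc-Cre;AhRfl/fl cells its log2 fold change was 1.19 (adjusted p = 0.0797, and 0.00265 with the replicate block). Gss, glutathione synthetase, had 0.58 and 0.55 (adjusted p = 0.112 and 0.127, and 0.0350 and 0.0558 with the replicate block). Between genotypes 0 of the 5 were called, all 5 had negative values at both treatments, and the medians were -0.23 with PBS and -0.37 with CRE.

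PPAR receptors and their classical target genes held no called member. Of 18 genes, 16 passed the filter on low counts and 0 were called in any comparison, with medians of 0.05 and 0.04 for CRE. As only 0.218% and 0.228% of all genes tested were called higher with CRE, 0 calls in this list is unremarkable. Cyp4a10 and Cyp4a14 had 0 counts in all libraries. Plin2, a lipid droplet coat gene, held 124 ± 11.8 FPKM with PBS and 128 ± 13.8 with CRE in AhRfl/fl cells (SD, n = 3). Ppara itself held 49 to 147 counts in the libraries. Ppard, another receptor of the family, had the furthest value, with 1.73 ± 0.506 and 4.52 ± 0.397 FPKM in AhRfl/fl cells (1.38 on the log2 scale, edgeR adjusted p of 0.171, and 0.0399 with the replicate block).

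**Figure D4:**
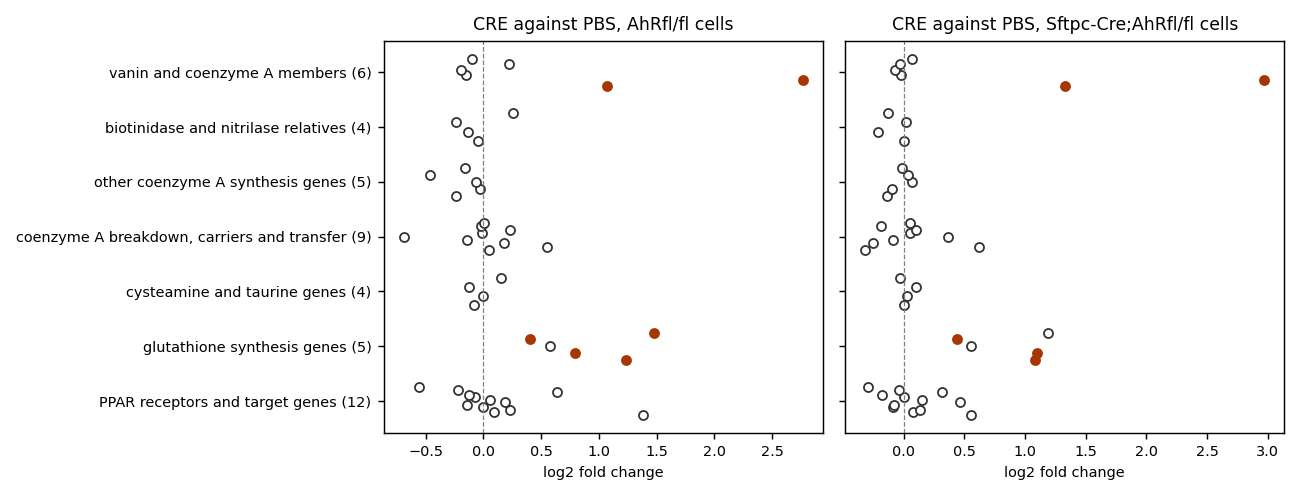
Log2 fold changes with CRE (x axis) of the genes in each list with at least 50 counts in every library (y axis, number plotted in parentheses), in AhRfl/fl (left) and Sftpc-Cre;AhRfl/fl cells (right); filled points were called by edgeR at an adjusted p below 0.05. Filled points stand only among the members (Vnn1 and Vnn3) and the glutathione genes, 4 of 5 on the left and 3 of 5 on the right.

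Around the vanin pair, no other gene was called with CRE, but the gene next to Vnn1 was too low to be measured well. Within 500000 bases on either side lie 19 other protein-coding genes, of which 14 had no count in any library and 5 passed the filter; 0 of the 5 were called in any comparison. Among the 19, 15 are trace amine receptor (Taar) genes, and of these Taar1 alone had counts, 2 to 73. Taar1, the gene that follows Vnn1, had log2 fold changes with CRE of 0.72 (SE 0.76, edgeR adjusted p of 0.878) in AhRfl/fl and 2.85 (SE 0.82, edgeR adjusted p of 0.391) in Sftpc-Cre;AhRfl/fl cells, the latter close in size to that of Vnn3 and not past the test. The closest expressed gene upstream was Slc18b1, a vesicular polyamine transporter, with log2 fold changes of 0.14 (SE 0.14) in AhRfl/fl and 0.33 (SE 0.14) in Sftpc-Cre;AhRfl/fl cells. Rps12, a ribosomal protein gene, had -0.19 and 0.04, and Stx7, an endosomal syntaxin on the other side, -0.09 and 0.00. Moxd1, with 0 to 23 counts, had -1.33 (SE 1.04) and 0.02 (SE 1.01).

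**Figure D5:**
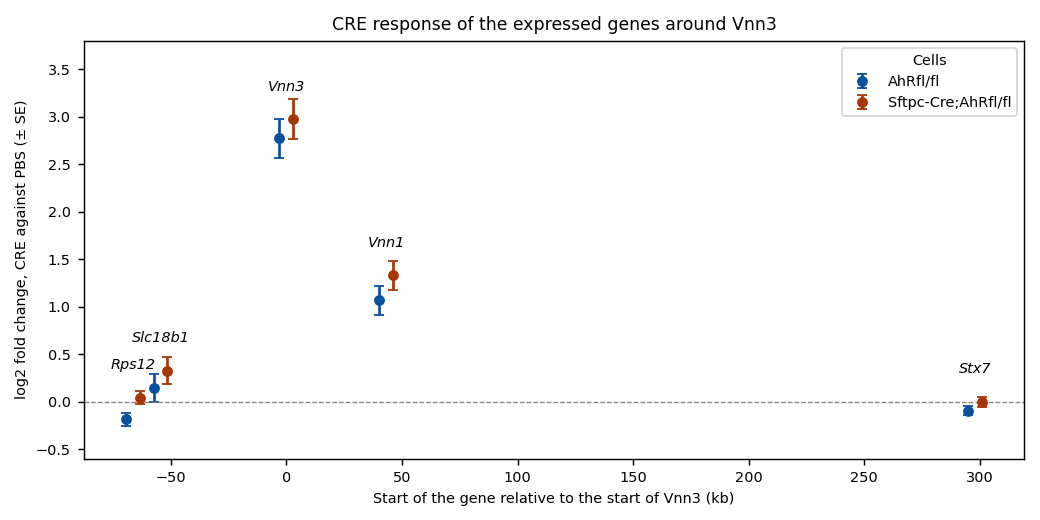
Log2 fold change with CRE ± SE (y axis) of the genes around Vnn3 that reached 1000 counts in a library, against the distance of each gene's start from that of Vnn3 (x axis, kb); the genotypes are shifted slightly apart. Vnn3 (2.77 and 2.97) and Vnn1 (1.07 and 1.33) stand above Rps12, Slc18b1 and Stx7, which lie between -0.19 and 0.33, and the low-count neighbours Taar1 (0.72 and 2.85) and Moxd1 (-1.33 and 0.02) are not drawn.

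The genes whose log2 CPM followed Vnn3 most closely over the 12 libraries were Plet1 (Pearson's r = 0.982), the chemokine gene Cxcl5 (0.977), the epithelial transcription factor gene Ehf (0.969), the glutathione reductase gene Gsr (0.968) and the metal transporter gene Slc11a2 (0.966). For Vnn1 they were Slc48a1, a haem transporter gene (0.984), Gm3776 (0.981) and Gsta1 (0.980), 2 glutathione transferase genes whose transcripts share 742 of their 845 (Gsta1) and 844 (Gm3776) words of 31 bases, so that the split of reads between them is uncertain, Tkt, transketolase of the pentose phosphate pathway (0.980), and Akr1b3, an aldose reductase gene (0.974). These r values describe points that share the CRE and PBS groups. Ranked by Spearman's rho, only Plet1 stayed among the top 5 for Vnn3. For Vnn1, Gsta1 and Gm3776 tied in rho (0.993) at positions 5 and 6, and Slc48a1 followed at position 7 (0.986). Log2 fold changes with CRE of the genes like Vnn3 were 1.53 (Plet1), 3.29 (Cxcl5), 1.25 (Ehf), 0.41 (Gsr) and 0.76 (Slc11a2) in AhRfl/fl cells, so likeness of pattern went with quite different sizes. Vnn1 and Vnn3 had r = 0.934 (Spearman's rho = 0.930) with each other over all libraries, which put Vnn1 at position 32 for Vnn3 and Vnn3 at position 39 for Vnn1. Within the 6 PBS libraries r was 0.726 (rho 0.543) and within the 6 CRE libraries 0.843 (rho 0.886), each across both genotypes.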

How the data were processed

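Gene expression was measured by stranded mRNA sequencing of 12 libraries. The authors aligned reads to GRCm38 with STAR (2.7.2b) and took counts with Salmon in a Partek flow, and the deposited counts are whole numbers per gene, not normalized. RefSeq is named as the annotation, whereas all 55450 gene IDs were found in GENCODE M21, from which symbols and positions were taken. The deposited FPKM values were made by the authors from these counts and hold 0.0001 where the count is 0. The single tables equal the combined one in 12 of 12 libraries.

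Counts were scaled with TMM in edgeR 4.0.16 (R 4.3.3), filtered by filterByExpr (minimum count 10; 20612 genes kept), and fitted with edgeR's quasi-likelihood test as 4 group means over all 12 libraries, with p-values adjusted by Benjamini and Hochberg over all genes at 0.05. Exact permutation tests (SciPy 1.17.1) were two-sided and used log2 CPM (prior count 2) or the Vnn3 share. Alternatives were DESeq2 1.42.0, limma-trend (limma 3.58.1) with adjustment or with the study's rule (unadjusted p below 0.05 and absolute log2 fold change above 0.5), RLE factors, library size alone, no filter, only the libraries compared, the replicate block and leaving out each library; the summed or correlated same-numbered libraries and the fit without both number 1 libraries of Sftpc-Cre;AhRfl/fl were chosen after seeing the data.

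Groups and replicate numbers came from the sample labels. Over 14009 genes, CRE and PBS libraries of the same number deviated together from their group means. In AhRfl/fl cells r was 0.728, 0.415 and 0.651, and in Sftpc-Cre;AhRfl/fl cells it was 0.595, 0.537 and 0.327. The replicate block for CRE therefore took the number as a pairing within genotype. For genotype comparisons the block was instead the number shared across genotypes, which does not model that pairing.

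The 6 members, the gene lists and the tests were chosen with earlier results of these data known. Named genes are the members, in the 6 lists of related pathways each gene called and the 2 of highest mean FPKM, the protein-coding genes within 500000 bases of the vanins, and for each vanin the 5 genes of highest Pearson correlation over the 12 libraries; the genes Ppard, Ppara, Gss, Cyp4a10, Cyp4a14, Ahr and the markers were named after their values were seen or to check the samples. A gene that this rule names is not reported here. Promoter windows are from RefSeq (GRCm38.p6), and transcripts were aligned with Biopython 1.88.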

Additional observations from a re-analysis of the deposited data

How the results depend on the processing

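For the 36 member values (6 genes in 6 comparisons), the alternative settings gave 606 further values, as each fit yields values for several genes and comparisons. Of the 606, 553 kept direction and side of the threshold, 28 reversed, 18 lost a call and 7 gained one. Where no reason is given, the cause was not tested. For CRE in Sftpc-Cre;AhRfl/fl cells, Vnn1 lost its call with only the libraries compared (1.33). For genotype with PBS, DESeq2 called Vnn1 (-0.72, adjusted p of 0.0020) and Vnn3 (-0.77, 0.0284), and so did the study's rule, whose p is unadjusted (-0.73 and -0.79). With CRE that rule took in Vnn3 (-0.56). For the averaged genotype, DESeq2 (-0.67) and that rule (-0.67) called Vnn3, while Vnn1 lost its call without both number 1 libraries of Sftpc-Cre;AhRfl/fl (-0.52), with same-numbered libraries summed (-0.56; Vnn3 -0.63) and in limma with their estimated correlation (-0.60), 3 fits chosen after seeing the data. Without both number 1 libraries the difference of the Pank2 response reversed to -0.24, and with library size alone the averaged Coasy value became 0.013.

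Leaving out 1 library at a time gave Vnn1 0.98 to 1.17 for CRE in AhRfl/fl cells and -0.67 to -0.52 for the averaged genotype (adjusted p of 0.0276 to 0.114). Vnn3 lay between 2.65 and 2.89 and between 2.79 and 3.08 for CRE in AhRfl/fl and Sftpc-Cre;AhRfl/fl cells, values that bear on a response it was selected on. The small values of the coenzyme A genes crossed 0. These were Pank2 for CRE in AhRfl/fl cells (-0.48 to 0.031), and in Sftpc-Cre;AhRfl/fl cells Pank1 (-0.093 to 0.026), Pank2 (-0.27 to 0.13), Pank3 (-0.17 to 0.065) and Coasy (-0.0012 to 0.13). For genotype with PBS they were Pank2 (-0.24 to 0.28) and Coasy (-0.21 to 0.0091), for the averaged genotype Pank2 (-0.033 to 0.23), Pank3 (-0.051 to 0.065) and Coasy (-0.069 to 0.043), and for the difference of the response Pank1 (-0.0090 to 0.22) and Pank2 (-0.10 to 0.41).

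The number of genes called was 48, 54, 31, 35, 130 and 0 for CRE in AhRfl/fl and Sftpc-Cre;AhRfl/fl cells, genotype with PBS, with CRE and averaged, and the difference of the response. It was 409, 254, 243, 174, 522 and 23 in DESeq2 and 848, 696, 846, 705, 847 and 475 by the study's rule. With only the libraries compared it was 13 for CRE in Sftpc-Cre;AhRfl/fl cells and 14 for genotype with PBS. Without 1 library it was 19 to 47, 23 to 62, 15 to 26, 21 to 30, 78 to 110 and 0 to 2. For the averaged genotype, the 3 fits added later gave 73, 17 and 67.

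With the replicate number as a block, 748 and 439 genes were called for CRE and 71, 55 and 223 for genotype with PBS, with CRE and averaged. The difference of the response gave 0, with 1874 at an unadjusted p below 0.05. Across genotypes the samples share only a number (r between PBS libraries of 0.410, 0.0625 and 0.0955, and between CRE libraries of 0.403, -0.0185 and 0.0868). The blocked edgeR adjusted p for the averaged genotype was 0.0166 for Vnn1 and 0.0863 for Vnn3, and the block changed no call of a member.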
